A study of Mus musculus with 4 samples.

Results

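The genes described here are Trp53, which encodes the tumour suppressor p53, and 9 of its regulators and targets, Mdm2, Mdm4, Cdkn1a, Ccng1, Bax, Bbc3, Pmaip1, Sesn2 and Phlda3. They were taken by name from the GENCODE M21 annotation of mouse (mm10, the same assembly as GRCm38), and all 10 were found among its 21938 protein-coding genes. The study mapped chromatin near PML bodies by ALaP-seq, in which cells express PML fused to the peroxidase APEX, an enzyme that biotinylates what surrounds it once hydrogen peroxide is given. The cells were E14 mouse embryonic stem cells with a knock-in of APEX-PML, grown with leukemia inhibitory factor, CHIR99021 (a GSK3 inhibitor) and PD0325901 (a MEK inhibitor). Both groups shared that genotype and medium, and there were 2 samples given hydrogen peroxide and 2 controls in which it was omitted. The deposited peak list merges replicates by its name and gives the position of 26496 peaks, with no height and no value for any sample. Whether the controls entered the peak calls is not given in the sources used here, so a peak cannot be read as enrichment over them. No comparison between treated and control samples, no replicate error and no depth could therefore be drawn from it, and every value below is a position, a width or a count in this list.

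PML bodies are nuclear structures built by the PML protein, and p53 is among the proteins known to be recruited to them, together with enzymes that modify it. p53 is a transcription factor that binds a response element made of repeated units in the promoters and introns of its targets. Its targets stop the cell cycle, start apoptosis or adjust metabolism, and MDM2, itself a target, and the related MDM4 hold it in check. In mouse embryonic stem cells p53 is abundant, and it is known to restrain Nanog after DNA damage.

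All 10 genes had at least 1 peak within 1 kb of a transcript start, where 42.4% of protein-coding genes did (9298 of 21938, exact Clopper-Pearson 95% interval 41.7 to 43.0%). Together they had 20 such start peaks. A peak lay over a start itself at 8 of the 10, against 29.6% of protein-coding genes, and Ccng1 and Bax were the 2 whose peaks lay beside the start. Of their 48 distinct transcript starts, 39 had a peak within 1 kb, against 34.5% of the 93513 starts of all protein-coding genes. Many of these starts lie close to each other and share 1 peak, so they are not separate observations. The start peaks were 118 to 1027 bp wide with a median of 250.5 bp, and the 10760 peaks at protein-coding starts in the whole list had a median of 243 bp.

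**Figure D1:**
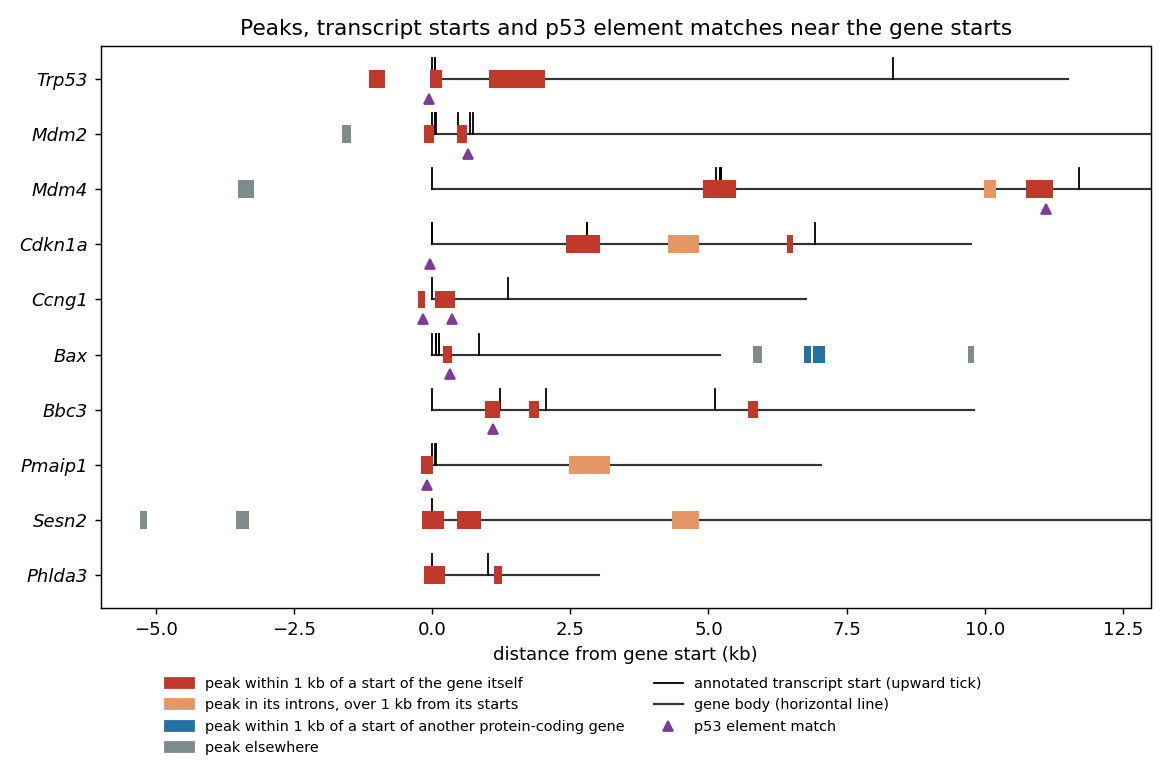
Peaks (boxes, true width), annotated transcript starts (upward ticks), gene bodies (horizontal lines) and p53 element matches (triangles) of the 10 genes, by distance from the gene start in kb, read in the direction of transcription. Mdm4 and Cdkn1a had no peak at their first start and one at starts further in, and 7 of the 10 genes had an element match in or beside a start peak.

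The p53 gene itself carried 3 start peaks on chromosome 11. A peak of 221 bp (69580316 to 69580536) covered the 3 clustered starts of Trp53, which lie 0, 43 and 46 bp from the gene start. A second of 285 bp (69579220 to 69579504) had its midpoint 997 bp upstream, inside Wrap53, the gene transcribed in the opposite direction that encodes a telomerase-associated protein. Both peaks also lay within 1 kb of a Wrap53 start, so they cannot be assigned to either gene. The third was the widest of the 10 loci, 1027 bp in intron 1 of Trp53-201 (69581381 to 69582407), and 0.808% of all peaks were at least as wide. It began 1022 bp from the gene start and 976 bp from the start of Trp53-202, and it counted as a start peak through the starts of Trp53-202 and Trp53-205. The noncoding start 8336 bp into the gene had no peak within 6288 bp. The other 2 peaks within 50 kb lay at other gene starts, 1 at an inner start of Wrap53 and 1 at Atp1b2.

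The bases before the Trp53 start are shown because the match to the p53 element there (capitals, 3 mismatches, chr11:69580284-69580303) lies just outside the 221 bp peak. The sequence is from RefSeq, GRCm38.p6, plus strand, chr11:69580256-69580358, from the first base past the Wrap53 start.
Trp53 start: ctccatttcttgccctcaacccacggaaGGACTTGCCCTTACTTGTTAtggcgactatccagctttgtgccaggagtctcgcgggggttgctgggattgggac

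Mdm2 encodes the ubiquitin ligase that marks p53 for degradation, and its intron 1 is known to hold a promoter driven by p53. On chromosome 10 a peak of 178 bp (117710726 to 117710903) covered the first start of Mdm2. A second peak of 195 bp (117710120 to 117710314), centred 541 bp into the gene, lay in intron 1 of Mdm2-201 and covered the start of the noncoding transcript Mdm2-207. Of the 8 Mdm2 starts, 7 had a peak within 1 kb, and these 7 lie within 736 bp of each other. A peak of 144 bp lay in coding exon 9 of Mdm2-201, 15.8 kb into the gene, and another of 161 bp lay 1.55 kb upstream. The fifth peak within 50 kb was at the start of Slc35e3, 35.7 kb upstream.

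The intron 1 peak is shown from its upstream edge to the end of the p53 element match (capitals, 3 mismatches), which straddled the downstream edge of the peak. It runs along the minus strand at chr10:117710105-117710314.
Mdm2 intron 1: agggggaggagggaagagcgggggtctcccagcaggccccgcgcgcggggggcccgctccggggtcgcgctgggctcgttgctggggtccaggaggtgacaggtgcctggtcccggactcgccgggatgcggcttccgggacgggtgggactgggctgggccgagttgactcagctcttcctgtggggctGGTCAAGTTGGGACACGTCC

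Mdm4, which encodes the MDM2 relative that inhibits p53 without ligase activity of its own, had no peak at the first start of its gene model on chromosome 1. The nearest peak to that start was 3218 bp away. A peak of 600 bp (133025064 to 133025663) instead covered 7 starts that lie 5145 to 5231 bp into the gene. Another of 489 bp (133019321 to 133019809) lay in intron 1 of Mdm4-201, 10996 bp into the gene and 463 bp from the noncoding start of Mdm4-212. An intronic peak of 225 bp lay 10.1 kb into the gene, and one of 169 bp lay 49.1 kb into it, in intron 10 of Mdm4-206. Of 13 distinct Mdm4 starts, 8 had a peak and 5 did not. Upstream there were a peak of 290 bp at 3.36 kb and one of 98 bp inside the neighbouring gene Pik3c2b at 49.2 kb.

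The 489 bp intronic peak held an element match with 1 mismatch (capitals), and the 100 bases before it are shown with it, minus strand, chr1:133019441-133019560.
Mdm4 intron 1: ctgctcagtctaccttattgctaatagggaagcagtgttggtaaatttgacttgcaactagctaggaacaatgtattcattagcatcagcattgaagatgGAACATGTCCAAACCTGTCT

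Cdkn1a encodes p21, the cyclin-dependent kinase inhibitor through which p53 arrests the cell cycle. It also lacked a peak at the first start of its gene model on chromosome 17, where the nearest peak was 2424 bp away. The starts of Cdkn1a-201 and Cdkn1a-205, 2793 and 2805 bp further in, were both covered by a peak of 622 bp (29093400 to 29094021), and 5.49% of all peaks were at least as wide. A peak of 560 bp followed in intron 1 (29095244 to 29095803), and one of 118 bp lay 386 bp from the start of Cdkn1a-203. Mdm4 and Cdkn1a were the 2 members with a start peak but none at the first start. This pattern was seen at 3.97% of protein-coding genes and at 7.08% of those whose starts span over 2 kb. Both shares also count genes without any start peak, which cannot show the pattern. It was seen at 871 protein-coding genes, and 9298 had a start peak.

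The 250 bases before each of these 2 Cdkn1a promoters are shown, because the p53 element and the peak fell on different ones. Both are RefSeq sequence, GRCm38.p6, plus strand. The upstream promoter (chr17:29090729-29090978) holds the element match (capitals, 1 mismatch, 48 bp before the gene start), and its nearest peak was 2453 bp away. The second promoter (chr17:29093519-29093768) lies wholly within the 622 bp peak and holds no match.
Cdkn1a upstream start: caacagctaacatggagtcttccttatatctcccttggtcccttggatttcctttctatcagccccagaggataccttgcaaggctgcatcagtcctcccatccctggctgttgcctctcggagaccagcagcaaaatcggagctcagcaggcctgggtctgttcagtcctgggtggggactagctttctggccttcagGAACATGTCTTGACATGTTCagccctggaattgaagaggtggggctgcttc
Cdkn1a second start: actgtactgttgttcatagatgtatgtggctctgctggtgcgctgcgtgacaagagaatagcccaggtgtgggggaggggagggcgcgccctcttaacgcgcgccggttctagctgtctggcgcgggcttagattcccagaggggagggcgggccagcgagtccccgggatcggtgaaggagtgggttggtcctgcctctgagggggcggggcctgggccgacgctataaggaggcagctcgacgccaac

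Upstream of Cdkn1a lay 10 peaks between 29056626 and 29082449, a span of 25.8 kb, followed by 8.53 kb without a peak before the gene start. Their widths were 127 to 816 bp with a median of 250 bp, and 6 of the 10 were at or above the median of the list, 223 bp. None was within 1 kb of a protein-coding start. By the first start of each gene model, the next protein-coding gene upstream was Srsf3, 58.3 kb away. At least 10 upstream peaks of this kind were found at 0.214% of protein-coding genes. The stretch holds Trp53cor1, the mouse lincRNA gene also called lincRNA-p21, whose transcript is known to be induced by p53. It is transcribed away from Cdkn1a from a start 11.8 kb upstream of it (29057430 to 29079179, minus strand). Of the 10 peaks, 7 lay in Trp53cor1 or within 1 kb of one of its starts, 1 more lay at the lincRNA gene AC167363.1, and 2 lay between Trp53cor1 and Cdkn1a. The widest, 816 bp and 9.84 kb upstream of Cdkn1a, was among those 2. All 7 annotated starts of Trp53cor1 had a peak within 1 kb and 3 were covered by one. They had 3 such peaks between them, and all but the first start lay within 1 kb of the same peak of 479 bp. The starts are thus not separate observations. Counted by gene, 10.2% of 5854 lincRNA genes had any start peak. Whether the 10 upstream peaks belong to Cdkn1a, to Trp53cor1 or to both cannot be told apart from their positions.

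The first start of Trp53cor1 lay in a peak of 545 bp (29078953 to 29079497), which also held an element match with 1 mismatch 121 bp downstream of that start. When whole peaks were searched, 7 of the 66 peaks held a match, against 2.01% of the list, and this was the 1 among the 7 that lay away from the own starts of the 10 genes. The stretch from the lincRNA start onward is shown with the match in capitals, minus strand, chr17:29078969-29079179.
Trp53cor1 start: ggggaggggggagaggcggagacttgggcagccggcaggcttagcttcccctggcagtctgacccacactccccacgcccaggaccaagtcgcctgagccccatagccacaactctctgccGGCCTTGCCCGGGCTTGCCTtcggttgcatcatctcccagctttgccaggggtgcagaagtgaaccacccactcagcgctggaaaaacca

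**Figure D2:**
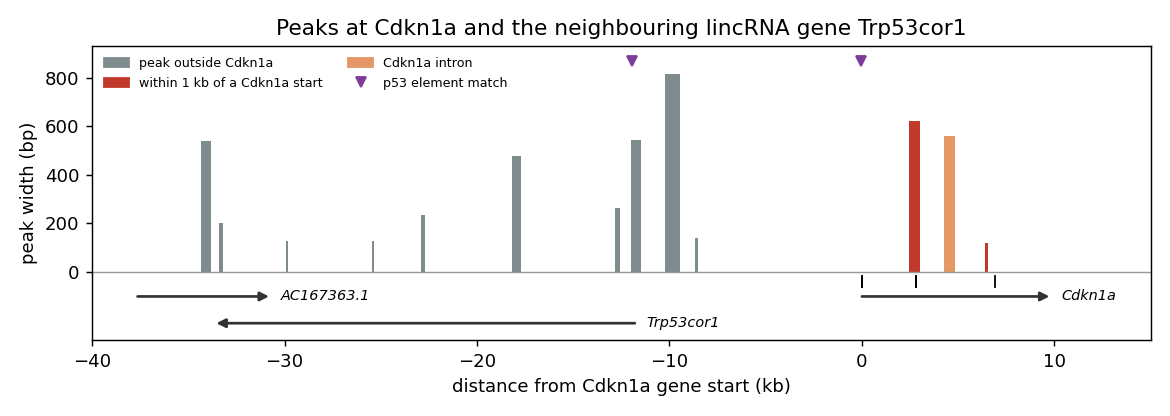
Peaks from 40 kb upstream to 15 kb downstream of the Cdkn1a gene start, drawn at true position with height equal to width in bp; arrows are genes in their direction of transcription and ticks are Cdkn1a starts. The 10 upstream peaks end 8.53 kb before the gene start, over and beside Trp53cor1, and the peak of 622 bp stands at the second group of Cdkn1a starts.

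Ccng1, whose product cyclin G1 is induced by p53 and acts in its feedback, had 2 peaks on either side of its first start on chromosome 11. One of 374 bp (40754895 to 40755268) was centred 230 bp downstream and one of 141 bp 192 bp upstream, and the start itself lay uncovered, 43 bp from the nearer edge. Each peak held an element match with 1 mismatch. The third peak within 50 kb, of 299 bp, had its midpoint inside Nudcd2 and lay within 1 kb of starts of both Nudcd2 and Hmmr. The match of the downstream peak is shown, minus strand, chr11:40754936-40754955.
Ccng1 downstream match: ACGCAAGCCCGGGCTAGTCT

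Among the genes of apoptosis, Bax, which encodes the protein that permeabilises the outer mitochondrial membrane, had a single start peak of 155 bp on chromosome 7 (45466548 to 45466702). It was centred 273 bp into the gene, in an untranslated exon of Bax-203 and intron 1 of Bax-201, and lay within 1 kb of all 6 Bax starts without covering any. Its element match had 2 mismatches (chr7:45466574-45466593, minus strand). Bax had 8 peaks within 50 kb, of which 4 lay at starts of other genes. These were 2 at Ftl1, the ferritin light chain gene, 1 at Dhdh, and 1 of 789 bp shared by Gys1 and Ruvbl2.
Bax match: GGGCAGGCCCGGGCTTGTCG

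Bbc3 encodes PUMA, a BH3-only protein that frees BAX from its inhibitors. Its 3 start peaks on chromosome 7 were 276, 188 and 174 bp wide and lay 1.09, 1.84 and 5.81 kb into the gene model. The first (16309344 to 16309619) covered the start of Bbc3-201, while the outermost start, that of Bbc3-204, was 951 bp from it. The element match with 3 mismatches (chr7:16309486-16309505) lay 14 bp from the midpoint of that peak. The other peaks within 50 kb were at the starts of Inafm1 and Ccdc9, 35.1 and 22.0 kb upstream, and a peak of 101 bp inside Sae1, which encodes a subunit of the SUMO-activating enzyme. The Bbc3 peak is shown up to the base before the Bbc3-201 start, plus strand, chr7:16309344-16309615.
Bbc3 peak: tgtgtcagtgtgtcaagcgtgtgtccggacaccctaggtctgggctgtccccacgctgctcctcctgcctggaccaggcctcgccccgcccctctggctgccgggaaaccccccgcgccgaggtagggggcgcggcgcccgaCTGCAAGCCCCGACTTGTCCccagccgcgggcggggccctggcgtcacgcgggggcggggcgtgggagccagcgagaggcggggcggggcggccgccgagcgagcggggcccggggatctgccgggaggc

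Pmaip1, which encodes the BH3-only protein NOXA, had a start peak of 225 bp on chromosome 18 (66458331 to 66458555) that covered its first start. The element match there had 2 mismatches and lay 4 bp from the peak midpoint. A wider peak of 752 bp lay in intron 2 of Pmaip1-201, 2.84 kb into the gene (66461002 to 66461753), and 2.68% of all peaks were at least that wide. The third peak within 50 kb, of 327 bp, lay 29.3 kb upstream and at no protein-coding start. No other protein-coding gene started within 50 kb of Pmaip1.

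Sesn2 encodes sestrin 2, which restrains mTORC1 under stress. On chromosome 4 its single start was covered by a peak of 387 bp (132510292 to 132510678), with a second of 431 bp in intron 1 centred 660 bp into the gene. Further into intron 1, at 4.58 kb, lay a peak of 497 bp. Upstream, 3 peaks of 237, 138 and 671 bp lay 3.43, 5.22 and 14.0 kb away at no protein-coding start, and 4.22% of all peaks were as wide as the last. The remaining 3 of its 9 peaks were at the starts of Atpif1, Dnajc8 and Med18. No element match was found in the central 300 bp of any Sesn2 peak.

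Phlda3, whose product competes with AKT for membrane lipids, had its first start on chromosome 1 covered by a peak of 369 bp (135765976 to 135766344). A peak of 149 bp lay in intron 1, 182 bp past the noncoding start of Phlda3-202. Of its 8 peaks within 50 kb, 2 lay at starts of the upstream gene Csrp1 and 4 at no protein-coding start, among them 2 of 400 and 113 bp inside Tnni1. Neither start peak of Phlda3 held an element match.

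Intronic peaks over 1 kb from every own start were found at 4 of the 10 genes, Mdm4, Cdkn1a, Pmaip1 and Sesn2, against 14.2% of protein-coding genes. Among the protein-coding genes within these genes' range of length, 1599 of 15970 had one. The 5 peaks were 169 to 752 bp wide with a median of 497 bp. A midpoint counted as intronic only where no transcript of the gene had an exon. By that rule, but also near starts, 14 peaks at 7 genes were intronic, where 20.5% of protein-coding genes had at least 1. Ccng1 had none, and at Mdm2 and Bax the peaks in intron 1 of Mdm2-201 and of Bax-201 fell in exons of Mdm2-207 and Bax-203 and were not counted.

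Around the gene starts, 66 peak midpoints lay within 50 kb in all, with none shared between members. Cdkn1a had the most, 13, and 1.53% of protein-coding genes had at least as many. It was followed by Sesn2 with 9 (5.27%), Bax and Phlda3 with 8 each (7.54%), Mdm4 and Bbc3 with 6 (14.6%), Trp53 and Mdm2 with 5 (20.0%), and Ccng1 and Pmaip1 with 3 (37.5%). The median over the 10 was 6, against 2 over all protein-coding genes. The 10 all had a start peak, which 42.4% of protein-coding genes had, and the comparison was not matched for this. Of the 66, 20 lay at the gene's own starts, 15 at starts of other protein-coding genes, 5 in introns and 26 elsewhere. Of peaks over 1 kb from every protein-coding start, Cdkn1a had 11, and 0.52% of protein-coding genes had at least that many. Mdm4, Sesn2 and Phlda3 had 4 each (8.17%), Bax had 3 (13.7%), Mdm2 and Pmaip1 had 2 each (23.8%), Bbc3 had 1 (43.6%), and Trp53 and Ccng1 had 0. The limit of 50 kb fell close to a few peaks. Those of Mdm4 at 49.11 and 49.16 kb were just inside it, and one of 190 bp at 50.02 kb from the Sesn2 start was just outside. Reads were mapped to repeat-masked sequence, and the masked share of these windows ran from 20.2% at Phlda3 to 39.7% at Cdkn1a. A stretch without peaks may thus be partly unmapped, and the counts were not adjusted for this. The masked share was read from the RefSeq sequence, whose mask may differ from that used in mapping. By this mask some peaks lay mostly in repeats. Upstream of Cdkn1a, the peak of 236 bp was 82.2% masked and that of 127 bp 60.6%.

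**Figure D3:**
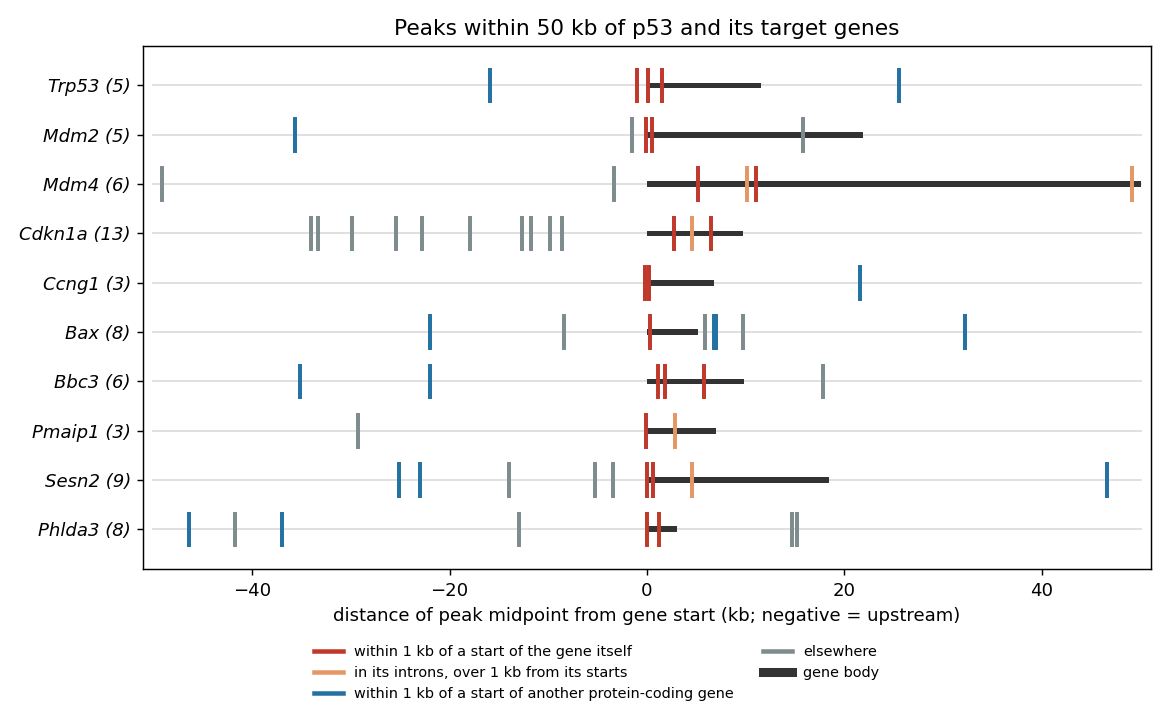
Every peak midpoint within 50 kb of the 10 gene starts, in kb along the direction of transcription, with gene bodies as thick lines and the number of peaks in brackets (line thickness of a peak is not its width). The 10 grey lines upstream of Cdkn1a are at no protein-coding start, while 4 of the 8 peaks of Bax are at starts of its neighbours.

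**Figure D4:**
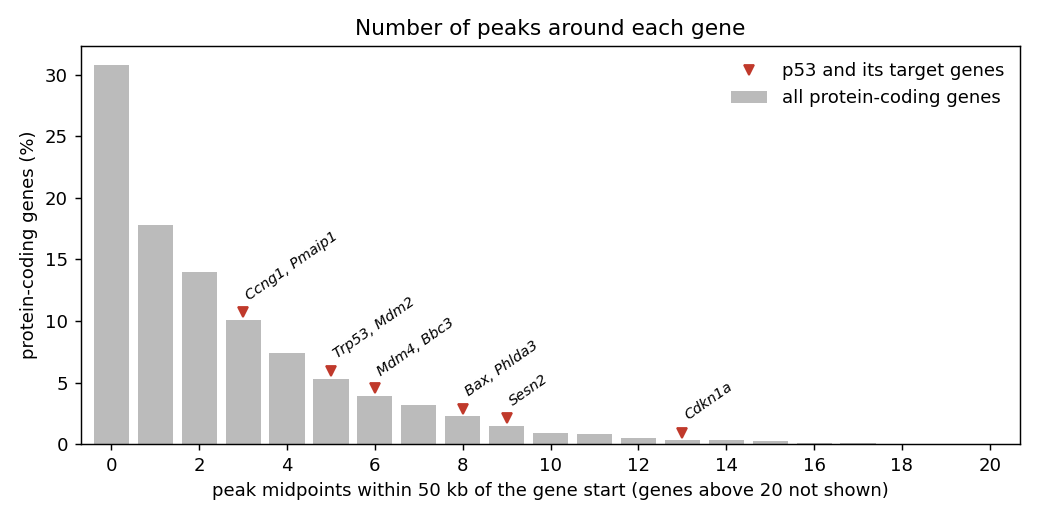
Share in percent of the 21938 protein-coding genes (bars) at each count of peaks whose midpoint is 50 kb or less from the gene start, and the 10 genes marked at their own number. The 10 genes stand at 3 to 13 peaks, above the median of 2 over all protein-coding genes, which were not matched for having a start peak.

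The starts that carried peaks and those that did not differed in CpG content, given as the ratio of observed to expected CpG over 500 bp either side. The 18 member starts covered by a peak ranged from 0.549 to 0.973, and the 9 with no peak within 1 kb from 0.126 to 0.443, so the groups did not overlap. The starts are not separate observations, since 7 of the 18 lie under 1 Mdm4 peak and the 9 belong to 4 genes. Most of the 9 are starts of noncoding transcripts, so the groups also differ in the kind of start. The other 21, with a peak nearby but not over them, spread from 0.125 to 0.961. At Cdkn1a the uncovered first start had a ratio of 0.127, and the covered start of Cdkn1a-201 one of 0.622. At Mdm4 the values were 0.231 at the first start and 0.623 at the covered start of Mdm4-201, and at Bbc3 they were 0.227 and 0.657. Over all protein-coding genes, 37.1% of the 42519 starts with a ratio of at least 0.5 were covered by a peak, against 2.35% of the 50994 starts below it. By the gene start alone, the members fell into classes 2, 3, 5, 6, 7, 8 and 10 of 10 classes numbered from the lowest ratio. Start peaks occurred at 3.78% of genes in class 1, at 7.93% in class 2, that of Cdkn1a, and at 12.9% in class 3, that of Mdm4 and Bbc3. The share was 20.2% in class 4, 38.7% in class 5 (Trp53), 56.7% in class 6 (Ccng1) and 67.2% in class 7 (Bax). It was 70.4% in class 8 (Sesn2 and Phlda3), 74.2% in class 9 and 71.8% in class 10 (Mdm2 and Pmaip1).

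**Figure D5:**
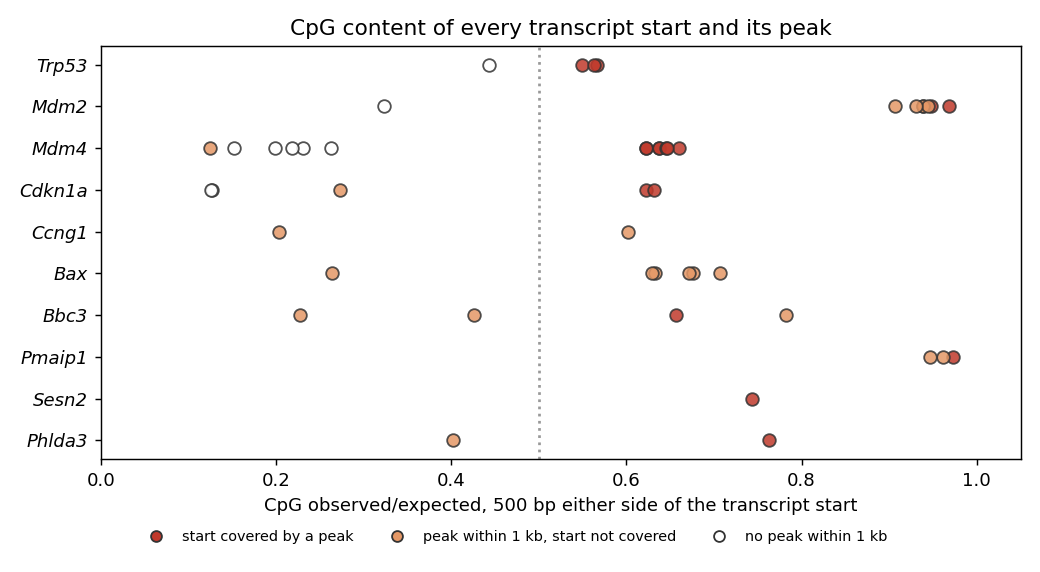
CpG observed/expected ratio over 500 bp either side of each of the 48 transcript starts (points) of the 10 genes, filled red where a peak covers the start, orange where a peak lies within 1 kb and white where none does. All 18 covered starts lie at or above 0.549 and all 9 starts without a peak at or below 0.443, but many starts share a peak and are not separate observations. The dotted line is at 0.5.

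A match to the p53 element was sought as 2 joined 10-base units without a spacer, with at most 3 mismatches and none at the invariant C and G bases. The element reads alike on both strands, so 1 search covered both. In the 300 bp centred on the peak, which run past the edges of narrower peaks, 8 of the 66 peaks at these loci had a match (12.1%), against 539 of all 26496 peaks (2.03%). All 8 were among the 20 peaks at the genes' own starts. None was among the 5 intronic peaks over 1 kb from every own start, the 15 at starts of other genes or the 26 elsewhere. These classes go by distance, and a start peak can itself lie in an intron. The matched start peaks of Mdm4 and Bbc3 had intronic midpoints. Those of Mdm2 and Bax lay in introns of some transcripts and exons of others. Of the 9298 protein-coding genes with a start peak, 2.14% had a match in one. Here the 8 matches fell at 7 genes, Trp53, Mdm2, Mdm4, Ccng1 (in both peaks), Bax, Bbc3 and Pmaip1. These genes were chosen as known p53 targets or as p53 itself, so a p53 element near their starts is no independent finding. A match describes the letters and does not show that p53 was bound, which was not measured here.

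With at most 2 mismatches and in or out of peaks, 4 of the 10 genes had a match within 5 kb of the gene start, against 9.76% of protein-coding genes. They were Cdkn1a, Ccng1, Bax and Pmaip1, with 5 matches in all, of which 4 overlapped a peak and that of Cdkn1a did not. Over all protein-coding genes 63 of 2356 such matches (2.67%) overlapped a peak. The 2 shares are not alike in kind. The 5 matches here lay 48 to 356 bp from the gene start, at genes that all had a start peak and were chosen as p53 targets. The 2356 lay anywhere within 5 kb, at genes of which 42.4% had a start peak. Neither distance nor the presence of a start peak was matched. Other words were sought in the same 300 bp on both strands. GGGCGG was found in 47.0% against 35.7%, CCAAT in 39.4% against 33.4%, TATAAA in 7.58% against 9.04% and TGANTCA in 13.6% against 7.04%.

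Further genes of the pathway were examined as 2 lists. Of 20 regulators and partners of p53, 16 had a start peak, against 42.4% of protein-coding genes, and the widest were at Chek1 (795 bp) and Atm (723 bp), which encode kinases of the DNA damage response, the acetyltransferase gene Ep300 (679 bp) and Topors (652 bp). Rchy1, Chek2, Hipk2 and Crebbp had none. The most peaks within 50 kb were at Pml itself, with 15, followed by Daxx with 11, Usp7 with 9, and Kat5 and Topors with 8 each. Their median was 2, the same as over all protein-coding genes. Only Wrap53 had a start peak with an element match, and it is the match next to Trp53. Of 29 other p53 targets, 20 had a start peak, against the same 42.4%, with the widest at Apaf1 (542 bp), Ddb2 (527 bp), Gadd45a (505 bp) and Tob1 (474 bp). Gdf15 had no start peak but 16 peaks within 50 kb, Plk3 and Pidd1 had 9 each, and Tigar, Ei24 and Ddb2 had 5, while the median of this list was also 2. Start peaks with an element match were found at 4 of the 20, Sesn1, Tigar, Ei24 and Pidd1, against 2.14% of all protein-coding genes with a start peak.

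Among genes known for a cell type, start peaks were present at all 6 embryonic stem cell genes examined, Pou5f1, Sox2, Nanog, Klf4, Zfp42 and Tfcp2l1. They were present at 1 of 6 genes of other cell types, Neurod1, and absent at Alb, Cd3d, Myod1, Col1a1 and Gata4. The list was not compared with a profile of open chromatin. The part of promoter accessibility in these counts was not tested.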

How the data were processed

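ALaP-seq libraries were made from E14 embryonic stem cells with APEX-PML, 2 given hydrogen peroxide and 2 controls. Per the series' design text and the submitters' processing notes, reads were trimmed with Trimmomatic and mapped to repeat-masked mm10 with Bowtie2 2.3.5.1, and blacklisted and greylisted regions were removed with bedtools. How peaks were called, at what threshold, and how replicates were merged is not given in the sources used here. Each row of the deposited file gives a peak position only, in base pairs, so no score or depth was used and width stood in for stringency.

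From these positions, peaks were joined to GENCODE M21 genes on GRCm38 with Python 3.11.15, and sequence was read with pysam 0.24.0. Start peaks shared at least 1 bp with the 1 kb either side of any transcript start. Intronic and 50 kb peaks were placed by their midpoint. CpG ratios used 500 bp either side of a start. RefSeq promoters (GRCm38.p6) matched 9 of the 10 genes. Both searches were tried on simulated data, and 200 of 200 planted start peaks and 800 of 800 planted elements were recovered. The peaks were planted inside the window, and the elements within the mismatch limit between stretches of A and T alone. Full recovery therefore checks the code only, and the rate of false matches in real sequence was not measured. No test was made, since the list holds no samples; the Clopper-Pearson interval from scipy 1.17.1 covers counting error only.

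All 10 genes are named, with genes whose starts share their peaks, the 4 members of each further list with most peaks or the widest start peak (with ties), and members without a start peak where they were 6 or fewer. Ptprv was listed among the targets but is not protein-coding in this annotation and was left out. The members and lists were chosen with earlier results of these data known. The search of whole peaks, the elements within 5 kb, the CpG ratio of every start, the counts of elements by list and the Trp53cor1 values were added after seeing the data. The sequence of 1 Ccng1 peak is not reported here.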

Additional observations from a re-analysis of the deposited data

How the results depend on the processing

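Of 30 alternative counts, 20 stayed within 1.5 times the reported one. All 10 genes kept a start peak with windows of 500 bp or 2 kb, with protein-coding transcripts alone and with midpoints, and 8 had one at the gene-model start (38.4% of protein-coding genes) or with peaks at or above the median width (27.3%). With those wider peaks, 24 of the 48 starts had a peak, against 22.4% of the starts of all protein-coding genes. Of the 66 peaks within 50 kb, 35 were that wide, a share near that of the whole list (13306 of 26496). Around Cdkn1a there were 8. The sum within 50 kb became 112 within 100 kb and 31 without peaks at protein-coding starts, and that of Cdkn1a became 8 within 20 kb and 22 within 100 kb. Each of these settings takes in fewer or more peaks by construction. For Cdkn1a, the share of protein-coding genes with at least as many stayed between 0.52% and 1.53%. Element matches were found in 5 peaks with at most 2 mismatches (0.604% of all peaks) and in 4 with the central 200 bp (1.4%). Searching whole peaks, chosen after seeing the data, gave 7, among them the Trp53cor1 peak, which the central window missed, and without the matches beside the Trp53 and Mdm2 peaks. Counting intronic peaks at any distance from starts, also chosen afterwards, gave 7 genes. No paired analysis was possible because the list holds no values per sample, and for the same reason no replicate could be left out.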
